A study of Mus musculus with 4 samples.

Results

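The brains of old and young mice that had received only a sham injection were compared gene by gene, first over every cell barcode that passed the filters and then within 4 cell classes. The study took the brain hemisphere opposite an intracranial injection, 2 weeks after it, from C57BL/6 mice injected at the age of 8 weeks (young) or 93 weeks (old). Sham mice received phosphate-buffered saline and the remaining mice received CT2A glioma cells, a mouse brain tumour line that carried green fluorescent protein and luciferase, and the tissue was dissociated enzymatically before single-cell RNA sequencing. There are 4 libraries in all, 1 for each combination of age and injection, and the comparison here uses the 2 sham libraries, with the tumour-bearing pair of the same ages set beside it. The young sham library is sham-injected mice of 8 weeks and the old sham library sham-injected mice of 93 weeks, with no transgene or genetic alteration named for either. The strain field of the labels ends in a different digit for each library, the number of mice behind a library is not stated in the sources used here, and both sham groups share the needle injury and the dissociation.

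Barcodes were kept with at least 500 unique molecular identifiers (UMIs, each counting 1 captured RNA molecule), at least 200 genes and at most 20% of UMIs from mitochondrial genes, which left 11701 barcodes of the young sham library and 10418 of the old sham library, 22119 of the 44503 kept in the series. Levels are UMIs of a gene scaled to 1000000 UMIs of the same pool of cells (CPM), and a ratio is the old CPM over the young CPM. With 1 library per age there is no replicate and no test: every interval is a 95% interval for counting error only, and a difference between the libraries cannot be told apart from a difference between the mice or the preparations. A gene counts as past the threshold when its ratio is at least 1.5 in either direction, among genes that reach 10 CPM in the young or the old cells of the pool and 50 UMIs in their sum. The kept barcodes held a median of 4055 UMIs and 1752 genes in the young library and 4840 UMIs and 2020 genes in the old library, with a median mitochondrial share of 4.08% and 3.29%. The libraries share 42 cell barcodes.

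Astrocytes take up transmitter and regulate water and ions, endothelial cells form the blood-brain barrier, oligodendrocytes wrap axons in myelin, and microglia are the resident macrophages of the brain. In the ageing brain each of them is known to shift its expression, with complement and antigen-presentation genes in glia and inflammatory cytokines in microglia among the best described. Immediate early genes such as Fos and Egr1 encode transcription factors that are induced within minutes by many stimuli, enzymatic dissociation included. Interferon-induced genes are switched on through the interferon-stimulated response element, and many immediate early and stress genes are switched on through the cyclic AMP response element, bound by CREB and ATF proteins.

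The following promoter windows are shown because they carry these elements in front of genes that separate the libraries below: Isg15, Ifit1 and Ifit3 of the interferon response in astrocytes, and Ppp1r15a of the changes that all 4 classes share. Each runs 5′ to 3′ on the strand of the gene and ends at the base before its start in RefSeq (GRCm38.p6), and capitals mark the matches, GAAA, any 2 bases and GAAA on either strand for the interferon element and TGACGTCA, which reads the same on both strands, for the cyclic AMP element. The windows are chr4:156200819-156201068 on the minus strand for Isg15, chr19:34640639-34640888 on the plus strand for Ifit1, chr19:34583279-34583528 on the plus strand for Ifit3 and chr7:45526269-45526518 on the minus strand for Ppp1r15a.
Isg15: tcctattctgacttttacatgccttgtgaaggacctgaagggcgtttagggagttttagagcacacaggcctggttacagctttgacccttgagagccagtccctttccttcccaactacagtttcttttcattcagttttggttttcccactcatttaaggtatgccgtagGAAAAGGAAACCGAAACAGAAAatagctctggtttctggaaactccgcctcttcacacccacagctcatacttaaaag
Ifit1: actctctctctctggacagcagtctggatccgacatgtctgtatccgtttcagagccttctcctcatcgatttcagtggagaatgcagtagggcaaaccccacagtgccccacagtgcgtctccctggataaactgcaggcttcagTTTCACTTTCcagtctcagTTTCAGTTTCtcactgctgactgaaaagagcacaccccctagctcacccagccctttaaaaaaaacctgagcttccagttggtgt
Ifit3: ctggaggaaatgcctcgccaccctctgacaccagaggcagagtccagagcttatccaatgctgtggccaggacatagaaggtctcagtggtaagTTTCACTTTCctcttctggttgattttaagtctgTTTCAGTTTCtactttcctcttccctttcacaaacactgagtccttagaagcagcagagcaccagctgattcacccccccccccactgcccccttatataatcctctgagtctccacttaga
Ppp1r15a: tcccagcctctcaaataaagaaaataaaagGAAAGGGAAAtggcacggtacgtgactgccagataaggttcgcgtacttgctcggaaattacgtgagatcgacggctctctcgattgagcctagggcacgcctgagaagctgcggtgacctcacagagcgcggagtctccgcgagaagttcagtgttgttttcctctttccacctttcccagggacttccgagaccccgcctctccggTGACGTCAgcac
Isg15 has 3 overlapping matches of the interferon element and Ifit1 and Ifit3 have 2 each. Ppp1r15a has 1 match of each element: the interferon element begins 220 bases before the start and the cyclic AMP element 12 bases before it. Among the 23 of 33 interferon-list genes with a promoter in the RefSeq table, 15 (65.2%) held the interferon element within 250 bases before to 50 bases after the start, against 3.99% of all 27025 genes of the table, which holds 32851 promoters of that length. A gene counted when any of its promoters held the letters. The cyclic AMP element was in 2.03% of all genes and in 3 of the 24 matched immediate early genes (12.5%), Btg2, Dusp1 and Maff. A match is a description of the letters and not of a bound site.

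The class rules counted UMIs of a few defining genes: astrocytes had at least 8 UMIs of Slc1a2, Slc1a3 and Aqp4 together, endothelium at least 4 of Cldn5 and Flt1, oligodendrocytes at least 6 of Mog, Mag and Ermn, and microglia at least 3 of P2ry12 and Tmem119. Cells low in these genes were left out, which limits what a class can show about genes that change with them. Oligodendrocytes made up a larger share of the old library and the other classes a smaller share. They were 9.66% of the kept barcodes in the young library (1130 cells) and 25.8% in the old (2685 cells), a ratio of 2.67 (2.49 to 2.86). Microglia went from 35.8% to 25.5% (4190 and 2656 cells), astrocytes from 27.1% to 20.8% (3172 and 2167 cells) and endothelium from 14.2% to 9.67% (1660 and 1007 cells). The tumour-bearing pair had a ratio of 1.48 for oligodendrocytes, 0.850 for microglia, 1.17 for astrocytes, the opposite direction, and 1.03 for endothelium (0.954 to 1.11), an interval that holds 1. A dissociated sample does not keep the proportions of the tissue, and the share of each class also rests on how many UMIs its cells gave.

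**Figure D1:**
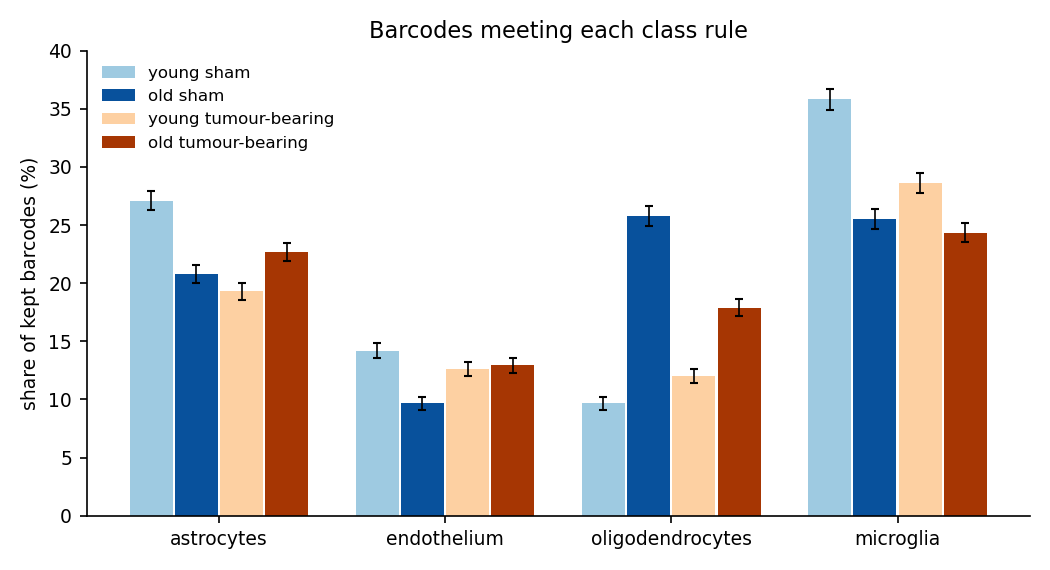
Share of kept barcodes (percent, vertical axis) that meet each class rule in the 4 libraries; bars start at 0 and error bars are exact Clopper-Pearson 95% intervals, which cover counting error only. Oligodendrocytes stand at 9.66% in the young sham library and 25.8% in the old, while the other 3 classes are lower in the old sham library.

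Of the 4 classes, each had the highest level of its own markers, which the rules did not use, but the classes also held RNA of other cells. The 8 choroid plexus markers summed to 12544 CPM in young endothelium and 1792 CPM in old, beside 11779 and 11528 CPM for the 10 endothelial markers. The 8 oligodendrocyte precursor markers summed to 238 CPM in young astrocytes and 766 CPM in old. In both libraries the 10 genes with the highest fold in each class over the rest included known genes of that class, such as Ntsr2, Grin2c and Cldn10 in astrocytes, Sox18 and Foxq1 in endothelium, Klk6 and Gjb1 in oligodendrocytes and Siglech, Gpr34 and Cx3cr1 in microglia. Cells at the exact threshold were few: 92 and 85 astrocytes, 21 and 12 endothelial cells, 0 and 18 oligodendrocytes and 140 and 106 microglia in the young and old libraries. A cell could meet more than 1 rule, and 805 young and 434 old cells did, of which Scrublet, a doublet caller, marked 508 and 329. Such cells were 26.5% of young but 10.6% of old endothelium and 19.6% of young but 11.6% of old astrocytes. Doublets were not removed, and each class was therefore also measured in the cells that met only its own rule, called 1-rule cells below. These were 2551 and 1915 astrocytes, 1220 and 900 endothelial cells, 958 and 2389 oligodendrocytes and 3780 and 2429 microglia. The level of the other classes' markers in 1-rule cells was taken as the level of carried RNA. It does not cover RNA carried from cells outside these classes, such as neutrophils. In 1-rule astrocytes the microglial markers stood at 0.969% (young) and 0.893% (old) of their level in microglia, the endothelial markers at 2.87% and 2.39% of their level in endothelium and the oligodendrocyte markers at 0.545% and 1.22%. Over all pairs of classes these shares ran from 0.208% to 5.29%, the highest for astrocyte markers in young 1-rule endothelium (4.86% in the old).

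Over all kept barcodes, inflammatory genes, genes of oligodendrocyte precursors and complement C4b were higher in the old library, and neutrophil genes were lower. Of 10334 genes measured, 567 (5.49%) were higher past the threshold and 330 (3.19%) lower. In such pooled cells, fewer cells of a type and less RNA per cell cannot be told apart.

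Tnf, the inflammatory cytokine, stood at 19.2 CPM in the young library and 145 CPM in the old, a ratio of 7.56 (7.12 to 8.04). Il1a, an interleukin-1 cytokine, went from 44.5 to 185 CPM (4.16), and Nfkbiz, an atypical IkB protein, from 46.2 to 168 CPM (3.64). C4b, a complement component, went from 11.1 to 64.8 CPM (5.86). The steepest of the 15 highest genes was Fam155a, which encodes an auxiliary subunit of the sodium leak channel NALCN, at 3.26 and 75.7 CPM (23.2). Lhfpl3 (4.17) and C1ql1 (4.08), both typical of oligodendrocyte precursors, and Spock3, a proteoglycan (24.1 to 101 CPM, 4.21), were also among them. The remaining members of the 15 were Tph1, Chgb, Ccl7, Pou3f1, Igkc, Cxcl10 and Abca8a. Some of these were concentrated in few cells of the old library. The 5 cells with most UMIs held 85% of Igkc, an immunoglobulin light chain, and 43.9% of Tph1, of serotonin synthesis. They held 32.2% of Chgb and 25.7% of Ccl7.

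Most of the 15 lowest genes were those of neutrophils and their precursors. The lowest of all was Bpifa1, a secreted airway epithelial protein, with 2774 UMIs in the young library, 99.4% of them in 5 cells, and 0 in the old. Pomc, a hypothalamic and pituitary prohormone, stood at 90.1 and 12.2 CPM (0.135) with 70.3% of its young UMIs in 5 cells, and Hist1h1d, a linker histone, at 43.9 and 11.4 CPM (0.259). S100a9, a calcium-binding protein of neutrophils, stood at 2031 CPM in the young library and 491 CPM in the old (0.242), and its partner S100a8 at 1011 and 291 CPM (0.288). The granule genes Camp (0.209), Ngp (0.229), Ltf (0.195), Mmp9 (0.229) and Lcn2 (0.263) and the precursor proteases Elane (0.0719) and Prtn3 (0.102) were also lower. The summed level of 7 neutrophil markers went from 4105 to 1038 CPM over all barcodes and from 19431 to 4214 CPM in barcodes that met no class rule. These genes stood the other way in the tumour-bearing pair, with S100a9 at 209 and 1260 CPM (6.03). The 5 erythroid markers summed to 2680 CPM in the young and 834 CPM in the old library, the 10 oligodendrocyte markers to 8380 and 12716 CPM, and the 8 precursor markers to 301 and 685 CPM, and the part of these cell numbers in the pooled ratios was not tested. Of the 15 highest genes 6 were past the threshold the same way in the tumour-bearing pair, and of the 15 lowest 1 was, beside 8.39% of all genes higher and 11.4% lower there.

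In astrocytes, the genes of the interferon response, of MHC class I and of the immediate early response were higher in the old library once cells that met a second rule were set aside, while the genes of astrocyte homeostasis differed little. Over all astrocytes 574 of 10703 genes (5.36%) were higher and 718 (6.71%) lower. In 1-rule astrocytes 503 of 10263 (4.9%) were higher and 118 (1.15%) lower. The markers of other cells moved with this: the 10 endothelial markers summed to 2341 CPM in young and 513 CPM in old astrocytes, and to 381 and 294 CPM in 1-rule astrocytes.

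The 10 highest genes over all astrocytes were led by Sspo, with 99.6% of its old UMIs in 5 cells, and by genes of oligodendrocyte precursors: Nxph1 (11.3), Pcdh15 (11.0), C1ql1 (10.2), Pdgfra (9.50), Lhfpl3 (9.12), Neu4 (8.75) and Matn4 (6.38), with Fam155a (8.73) and Spp2, all of whose UMIs came from at most 5 cells, completing the 10. Pdgfra, the growth factor receptor that defines those precursors, was at 11.7 CPM in young and 103 CPM in old 1-rule astrocytes (8.82, 7.40 to 10.6). Fam155a stood at 3.26 and 9.15 CPM in 1-rule astrocytes, under the floor of 10 CPM. The 8 precursor markers summed to 229 and 768 CPM in 1-rule astrocytes, and the part of precursors that meet the astrocyte rule was not tested. The lowest 10 held the neutrophil genes Camp, Ngp and Lcn2 and endothelial genes such as Tie1 (0.0855) and Cd93 (0.111). Erg, an endothelial transcription factor, had a ratio of 0.125 over all astrocytes. In 1-rule astrocytes it had only 4 and 4 UMIs (1.27, 0.237 to 6.84), under the floor for a measured gene.

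Of 26 interferon-response genes measured in 1-rule astrocytes, 21 were higher and 0 lower, with a median log2 ratio of 1.33. Isg15, a ubiquitin-like protein, stood at 8.00 CPM in the young and 69.0 CPM in the old library (8.62, 6.96 to 10.8). Ifit1, which blocks translation of foreign RNA, stood at 7.10 and 40.1 CPM (5.65, 4.47 to 7.22), and Ifit3 at 18.8 and 77.8 CPM (4.14, 3.57 to 4.83). These are the 3 genes whose promoter windows are printed above. The more abundant Ifitm3, a block to viral entry, stood at 152 and 380 CPM (2.49), and Bst2, which tethers virions, at 26.1 and 104 CPM (3.97). The 5 old cells with most Isg15 held 21.9% of its 663 UMIs. Iigp1, an immunity-related GTPase, had the largest ratio of the list (11.5) on 13 young and 117 old UMIs. Over all astrocytes, with cells of 2 rules counted, the list had 7 genes higher and 5 lower of 29 and a median of 0.21. In 1-rule astrocytes of the tumour-bearing pair 3 of 32 were higher and 12 lower (against 1.95% and 4.05% of all genes there), with a median of -0.27.

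Of 11 MHC class I genes 8 were higher in 1-rule astrocytes, among them H2-D1, a classical class I heavy chain, at 51.7 and 130 CPM (2.52, 2.29 to 2.78). The immediate early genes had 15 of 20 higher and a median of 1.09, with Fos at 64.2 and 455 CPM (7.08). Of 12 reactive-astrocyte genes 6 were higher and 1 lower: C4b stood at 20.2 and 80.4 CPM (3.97), Gfap, the astrocyte intermediate filament, at 69.3 and 155 CPM (2.24), and Serpina3n, a protease inhibitor, at 4.65 and 11.1 CPM (2.39). The lower one was Lcn2, also a neutrophil gene. Astrocyte homeostasis had 0 of 15 higher and 1 lower, Hapln1, a matrix link protein, at 127 and 65.1 CPM (0.512). The class rule asked for Slc1a2, Slc1a3 and Aqp4, of the same list, so astrocytes low in them were left out of this count. Heat shock proteins had 4 of 18 lower, among them Hsph1, a nucleotide exchange factor of HSP70, at 193 and 97.1 CPM (0.504).

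**Figure D2:**
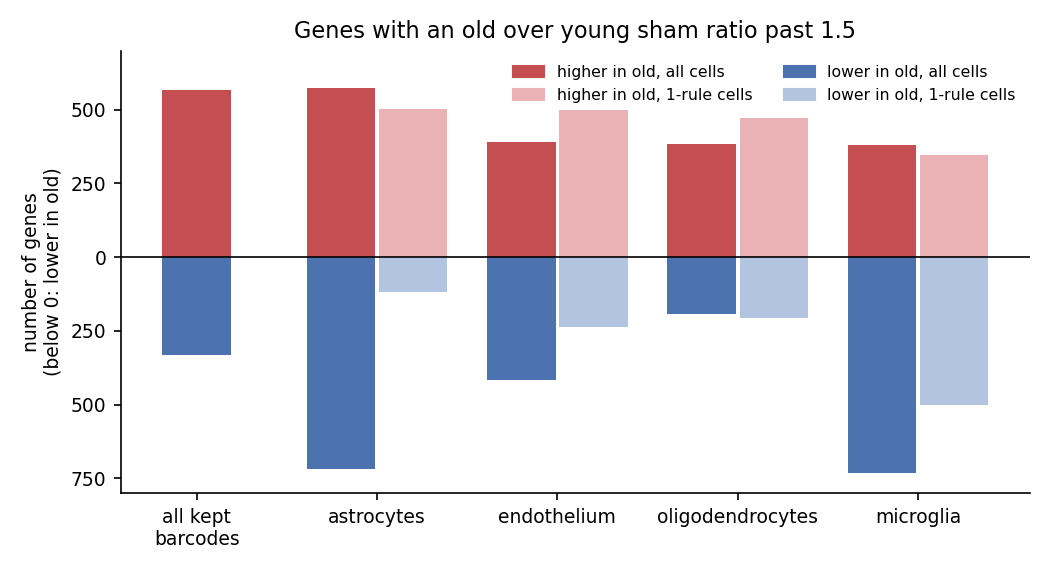
Number of genes (vertical axis, higher in old above 0 and lower in old below 0) with a ratio past 1.5 in all kept barcodes and in each class, for all cells of the class (dark) and for 1-rule cells (light). In astrocytes the lower genes go from 718 to 118 when cells of more than 1 rule are set aside.

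In endothelium, a pair of MHC class I genes and the immediate early genes were higher in the old library, and genes of the blood-brain barrier differed little. Over all endothelial cells 389 of 9415 genes (4.13%) were higher and 415 (4.41%) lower, and in 1-rule cells 498 of 9040 (5.51%) and 235 (2.6%). The 10 lowest over all endothelium were neutrophil genes, genes of choroid plexus epithelium such as Kcnj13, Folr1 and Wfdc2, and Crym, which was highest in astrocytes (194 and 136 CPM). Each of the 10 had more than 50% of its young UMIs in 5 cells. The choroid plexus markers summed to 12544 CPM in young and 1792 CPM in old endothelium. In 1-rule endothelium they summed to 14979 and 2038 CPM, so setting aside cells of a second rule did not remove this difference. Of the 10 highest, Spp1, Chgb and Penk had over 90% of their old UMIs in 5 cells, Lpl 79.6% and Tnf 59.0%, and the others were H2-Q6, Cyp2e1, H2-Q7, Fos and Rasgrf2.

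H2-Q6 and H2-Q7 encode non-classical MHC class I molecules and lie at chr17:35424850-35430055 and chr17:35439155-35443773 of GRCm38, close copies of each other, so how reads were split between them is uncertain. In 1-rule endothelium H2-Q6 stood at 1.20 CPM in the young and 56.1 CPM in the old library (46.8, 24.4 to 103), on 9 and 367 UMIs. H2-Q7 stood at 9.19 and 132 CPM (14.4, 11.3 to 18.7), and H2-Q4 at 57.1 and 140 CPM (2.45). The UMIs were spread, with 10.6% of those of H2-Q6 and 7.85% of those of H2-Q7 in the top 5 old cells. The classical H2-K1 (468 and 839 CPM, 1.79) and its light chain B2m (630 and 1046 CPM, 1.66) were also past the threshold, and the other 10 of the 15 measured genes of the list were not. In the tumour-bearing pair H2-Q6 went from 10.4 to 56.0 CPM (5.40) and H2-Q7 from 76.7 to 159 CPM (2.07).

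The immediate early genes had 20 of 24 members higher and 0 lower in 1-rule endothelium, with a median log2 ratio of 1.79. Fos, part of the AP-1 transcription factor, stood at 196 and 1941 CPM (9.92, 9.40 to 10.5), its partner Jun at 581 and 2604 CPM (4.48), and Egr1, a zinc finger factor, at 42.1 and 337 CPM (8.00). In the tumour-bearing pair the same list had 6 of 23 higher (against 3.37% of all genes) and a median of 0.42, with Fos at 99.0 and 163 CPM (1.65). Of the heat shock proteins, the inducible HSP70 genes Hspa1a (101 and 314 CPM, 3.12) and Hspa1b (79.9 and 213 CPM, 2.66) were past the threshold and the other 16 were not. The circadian clock genes had 7 of 12 higher and 2 lower: Nr1d1, a repressor in the clock, stood at 41.0 and 103 CPM (2.51) and Dbp, an output factor, at 36.8 and 72.1 CPM (1.96), while Arntl, the activator that Nr1d1 represses, stood at 37.6 and 21.2 CPM (0.565) and Cry1 at 14.1 and 7.33 CPM (0.519). The hour at which each brain was taken is not given in the sources used here. The promoters of 5 of 15 matched clock genes (33.3%) held the E-box CACGTG, against 8.09% of all genes of the promoter table.

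A smaller set of endothelial genes had like ratios in both pairs of libraries. Rasgrf2, an exchange factor for Ras and Rac (chr13:91880400-92131656, GRCm38), stood at 5.99 and 42.2 CPM in 1-rule sham cells (7.04, 5.12 to 9.87) and at 5.18 and 35.3 CPM in the tumour-bearing pair (6.82). Lypd1, which binds nicotinic receptors, stood at 18.5 and 83.9 CPM (4.53) and 17.8 and 95.6 CPM (5.36). On the lower side Adgrl3, an adhesion receptor, stood at 33.2 and 12.7 CPM (0.382) and 32.6 and 10.9 CPM (0.334), and Auts2 at 50.7 and 20.9 CPM (0.413) and 50.9 and 18.1 CPM (0.356). In these genes the old and young libraries of each pair separate by about the same factor. Of the adhesion and activation genes 5 of 12 were higher, among them Vwf, the clotting factor (190 and 330 CPM, 1.74), and Icam1, a leukocyte adhesion molecule (19.7 and 39.7 CPM, 2.02). Of 17 blood-brain barrier genes 0 were higher and 1 lower, Tfrc, the transferrin receptor (0.56). Cldn5, of the same list, is part of the class rule, so endothelial cells low in the rule genes were left out of this count.

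In oligodendrocytes, Fam155a had the highest ratio of the named genes, complement C4b and the immediate early genes were higher in the old library, and 4 of 15 myelin genes were lower. Over all oligodendrocytes 385 of 8602 genes (4.48%) were higher and 193 (2.24%) lower, and in 1-rule cells 472 of 8143 (5.8%) and 205 (2.52%). Fam155a (chr8:9205902-9771161, GRCm38) stood at 1.94 CPM in young and 274 CPM in old 1-rule oligodendrocytes (141, 83.9 to 258), on 14 and 3841 UMIs. The 5 old cells with most of them held 1.64%. In the tumour-bearing pair it stood at 2.57 and 0.677 CPM (0.263), so the level was high in the old sham library alone of the 4.

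C4b (chr17:34728380-34743882, GRCm38) stood at 21.9 and 173 CPM (7.88, 6.71 to 9.32) and, in the tumour-bearing pair, at 65.2 and 252 CPM (3.86). It belongs to 12 genes listed as candidates of aged oligodendrocytes, of which 7 were higher and 0 lower: Serpina3n stood at 4.16 and 18.2 CPM (4.37), H2-D1 at 47.6 and 97.4 CPM (2.05), Apod, a lipid carrier, at 3175 and 5323 CPM (1.68), and Il33, an alarmin cytokine, at 702 and 1124 CPM (1.6), with S100b and Anln the other two. That list was chosen with results of these data known and its direction is not independent evidence. Other genes among the highest in 1-rule oligodendrocytes were Ogdhl, an oxoglutarate dehydrogenase-like enzyme (5.96 and 39.1 CPM, 6.55), Clic5, a chloride channel protein (0.693 and 23.9 CPM, 34.5, 14.7 to 107, on 5 young UMIs), and Itgb5, an integrin (11.5 and 47.9 CPM, 4.16). Their ratios in the tumour-bearing pair were 2.92, 12.2 and 2.75. Over all oligodendrocytes the 10 highest also held Il1a, Chgb, Ccl12, Egr1, Fos, Nrgn and Nfkbiz.

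Among the lowest, Itih3, a hyaluronan-binding inhibitor chain (chr14:30908572-30923760, GRCm38), stood at 127 and 22 CPM in 1-rule oligodendrocytes (0.173, 0.152 to 0.197) and at 104 and 17.4 CPM in the tumour-bearing pair (0.167). Man1a, a mannosidase of the Golgi (chr10:53904785-54076609), stood at 61.4 and 10.3 CPM (0.168) and at 53.8 and 10.2 CPM (0.189). Gamt, of creatine synthesis, is more abundant and stood at 531 and 217 CPM (0.408) and at 483 and 224 CPM (0.465). The other 6 of the 10 lowest over all oligodendrocytes, Vip, Camp, Ngp, Lcn2, S100a9 and S100a8, each had over 90% of their young UMIs in 5 cells, and Btbd16 (0.261) and Hist1h1c (0.304) completed the 10. Of 15 myelin genes 0 were higher and 4 lower in 1-rule cells: Mal (8594 and 5353 CPM, 0.623), Cldn11, the tight-junction protein of the sheath (0.630), Tspan2 (0.644) and Mobp (0.657), while Mbp (1.01) was within the threshold. Cholesterol synthesis had 3 of 19 lower, Idi1 (0.647), Hmgcs1 (0.604) and Mvd (0.575). The immediate early genes had 15 of 19 higher, with Fos at 180 and 834 CPM (4.62) and, in the tumour-bearing pair, at 65.0 and 235 CPM (3.62).

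**Figure D3:**
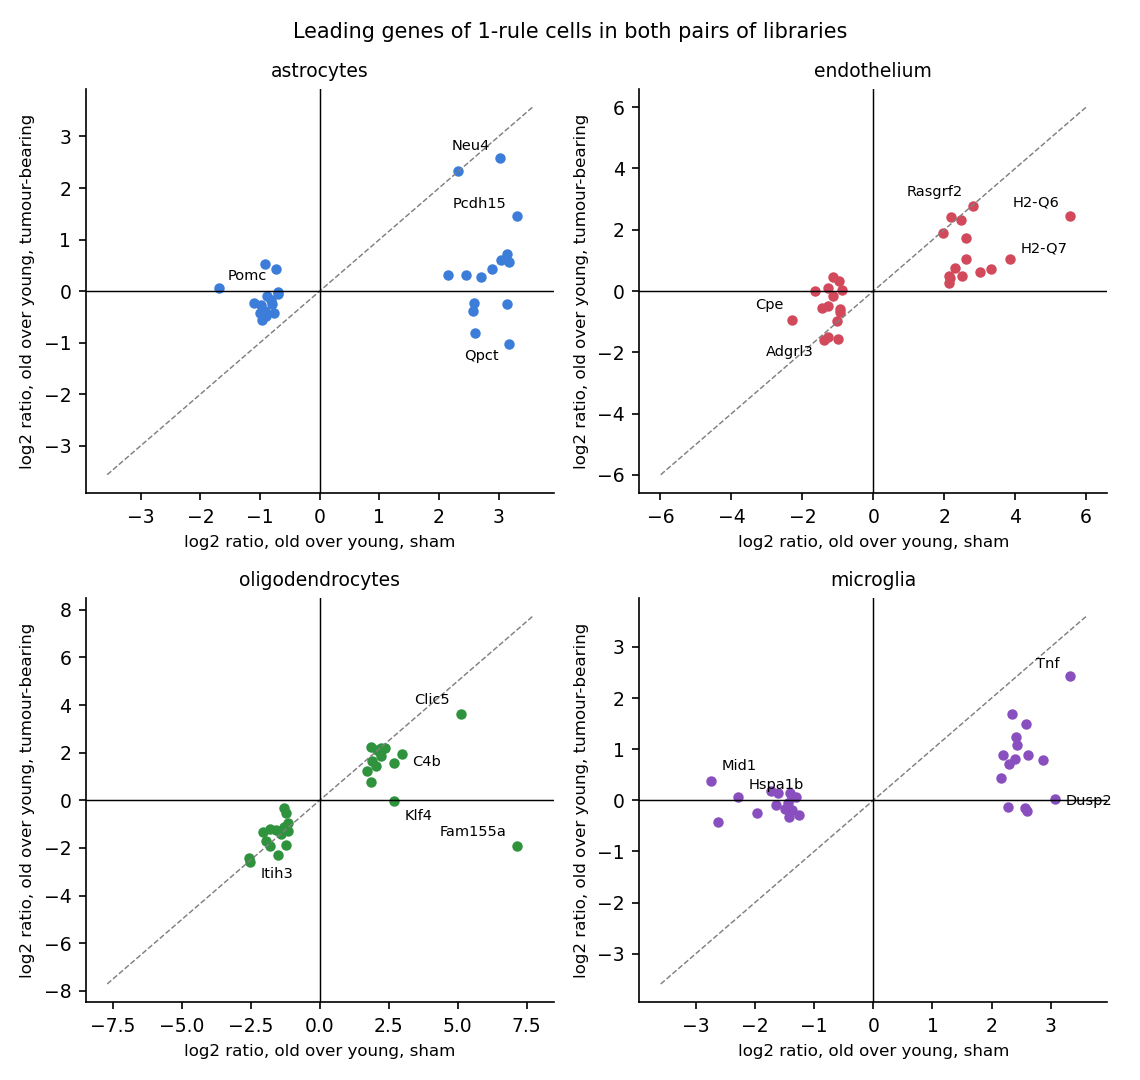
The 15 highest and 15 lowest genes of 1-rule cells in each class, by log2 ratio of old over young in the sham pair (horizontal axis) and in the tumour-bearing pair (vertical axis); each point is a gene and the dashed line marks equal ratios. Within 1 log2 unit of the line lie 24 of the 30 oligodendrocyte genes (all but Fam155a, Clic5, C4b, Ogdhl, Klf4 and Btg2), 14 of the astrocyte, 15 of the endothelial and 3 of the microglial genes.

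This ranking of 1-rule cells, which leaves out genes with over 20% of their UMIs in 5 cells, was added after the data had been seen. Of the 15 highest and 15 lowest genes of oligodendrocytes, 13 and 13 were past the threshold the same way in the tumour-bearing pair, beside 3.71% of all genes higher and 4.08% lower there. For endothelium the counts were 11 and 6 (3.37% and 5.62% of all genes), for microglia 10 and 0 (3.39% and 6.97%) and for astrocytes 5 and 0 (1.95% and 4.05%). The plot of both pairs shows this class by class, and the difference between classes was not tested.

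In microglia, inflammatory cytokines and the feedback genes of NF-kB were higher in the old library, and 5 of 12 histone genes and the inducible HSP70 genes were lower, while homeostatic microglial genes differed little. Over all microglia 382 of 9043 genes (4.22%) were higher and 733 (8.11%) lower, and in 1-rule microglia 347 of 8452 (4.11%) and 502 (5.94%). The median depth of a microglial barcode was 3842 UMIs in the young and 5208 UMIs in the old library.

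Of 17 cytokine and chemokine genes 15 were higher and 0 lower in 1-rule microglia, with a median log2 ratio of 1.81. Tnf (chr17:35199381-35202007, GRCm38) stood at 56.0 and 562 CPM (10.0, 9.36 to 10.8), with 3.73% of its old UMIs in 5 cells. Il1b stood at 53.9 and 393 CPM (7.28, 6.77 to 7.84), Il1a at 153 and 777 CPM (5.06), and the chemokine Ccl4 at 983 and 3456 CPM (3.52). Il6 (1.15) and Il18 (0.920) were within the threshold. The NF-kB feedback genes had 10 of 12 higher: Nfkbia, the inhibitor IkBa, stood at 586 and 2679 CPM (4.57), Nfkbiz at 118 and 626 CPM (5.33) and Tnfaip3, the deubiquitinase A20, at 96.4 and 340 CPM (3.53). Both sets were higher together in the same library. In the tumour-bearing pair the cytokine list had 8 of 16 higher and 3 lower (against 3.39% and 6.97% of all genes) and a median of 0.37, with Tnf at 23.6 and 127 CPM (5.37) and Il1b at 56.5 and 97.4 CPM (1.72).

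The 10 highest genes over all microglia were Tnf (9.80), Dusp2, a phosphatase of MAP kinases (8.50), Il1b (7.16), Tnfaip2 (6.04), Marcksl1 (5.74), Nr4a1, an orphan nuclear receptor (5.68), Gadd45b (5.54), Arl5c (5.38), Nfkbiz (5.37) and Egr3 (5.33), and each remained past the threshold in 1-rule cells. Dusp2 stood at 13.5 and 113 CPM in 1-rule cells (8.42) but at 11.0 and 11.2 CPM in the tumour-bearing pair (1.02). The immediate early genes had 10 of 23 higher and 1 lower, beside 15 to 20 genes in the other classes, a difference that was not tested. Jun stood at 4582 and 6455 CPM (1.41) and Fos at 2316 and 3655 CPM (1.58), both higher in young microglia than in the other young classes, while Klf2 and Klf4 were highest in young endothelium. Of 25 interferon-response genes 11 were higher, with Isg15 at 23.5 and 63.6 CPM (2.71). Disease-associated microglia genes had 5 of 19 higher: Apoe, the lipid carrier, stood at 1742 and 3389 CPM (1.95), Cst7, a cathepsin inhibitor, at 11.0 and 39.4 CPM (3.58), Itgax at 3.46 and 12.2 CPM (3.51), Axl at 2.12 and Csf1 at 4.36. Trem2 (0.911) and Tyrobp (1.04), the receptor and adaptor of that state, were within the threshold. Cdkn1a, the cell cycle inhibitor p21, stood at 44.7 and 141 CPM (3.14). Ribosomal protein genes had 19 of 84 higher and 0 lower, with a median of 0.41, beside a median of -0.07 over all genes of the microglia.

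On the lower side, Hspa1b and Hspa1a stood at 249 and 51.0 CPM (0.204) and at 250 and 75.8 CPM (0.303) in 1-rule microglia, the reverse of endothelium, and in the tumour-bearing pair at 55.1 and 57.7 CPM (1.05) and at 42.3 and 47.9 CPM (1.13). These 2 genes are close copies of each other. Of 12 histone genes 5 were lower: the linker histone Hist1h1c stood at 506 and 205 CPM (0.406) and Hist1h2bc at 419 and 138 CPM (0.329), and their ratios were 1.05 and 1.10 in the tumour-bearing pair. Outside the list, Hist1h1e stood at 615 and 227 CPM (0.369). Replication-dependent histone messages carry no poly(A) tail as a rule, and polyadenylated forms are the ones such a library captures. Mid1, a ubiquitin ligase on the X chromosome, stood at 25.0 and 3.75 CPM (0.150). The other lowest genes over all microglia, Hist1h1b, Hist1h2ac, Apcdd1, Csrp2, Col1a1, Crym, Emcn and Kcnj13, included markers of vessels, fibroblasts and choroid plexus. In 1-rule cells Hist1h1b, Hist1h2ac, Csrp2, Col1a1 and Kcnj13 remained past the threshold. Apcdd1 (1.89 and 0.535 CPM), Crym (1.76 and 1.45 CPM) and Emcn (2.01 and 0.917 CPM) were under the floor of 10 CPM there. They have no measured direction in 1-rule cells. Homeostatic microglial genes had 0 of 14 higher and 1 lower, Fcrls at 1807 and 1150 CPM (0.637). The class rule asked for P2ry12 and Tmem119, of the same list, so microglia low in them were left out of this count.

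**Figure D4:**
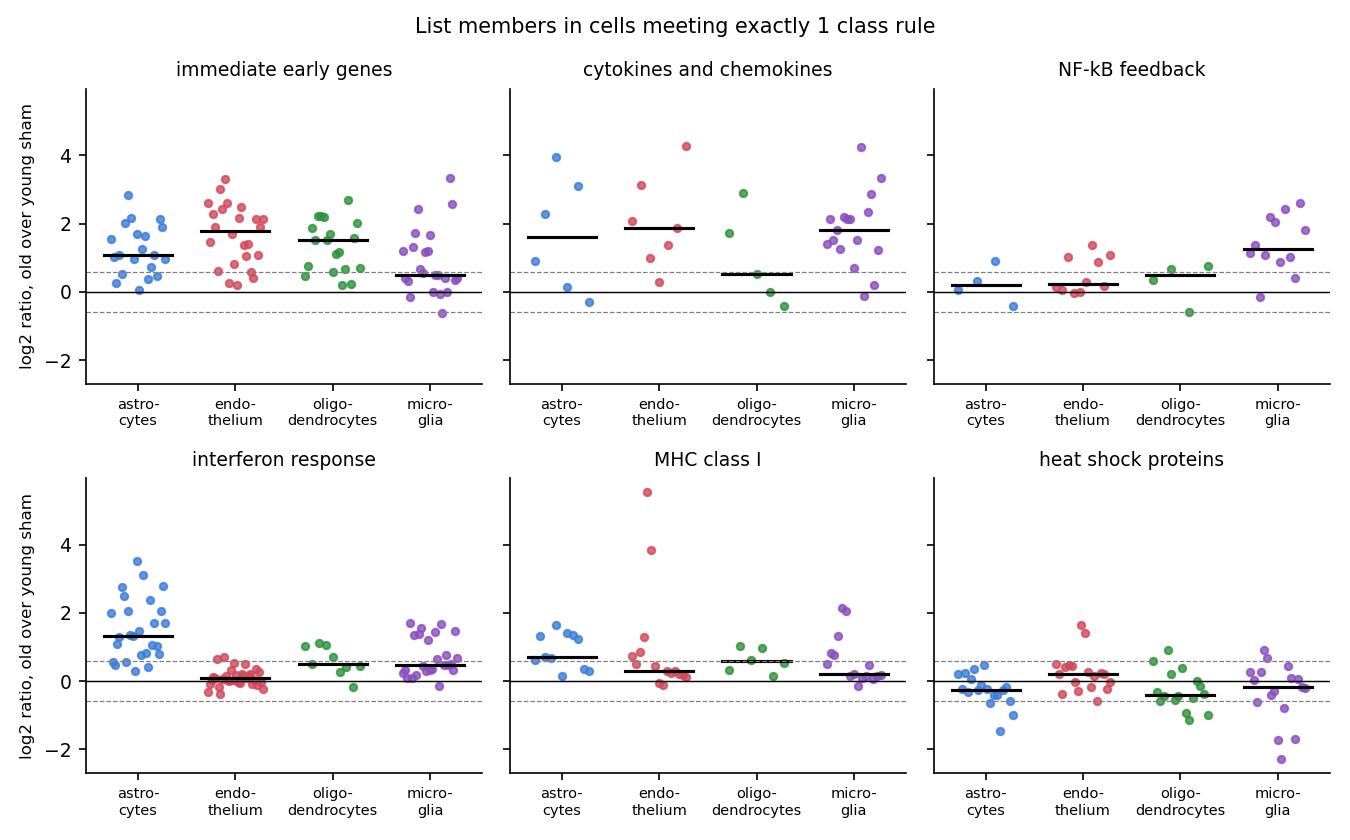
Log2 ratio of old over young sham (vertical axis) of each measured member of 6 gene lists in 1-rule cells of the 4 classes; points are genes, bars are medians and dashed lines mark a ratio of 1.5 in either direction. The interferon list has its highest median in astrocytes (1.33), the NF-kB list in microglia (1.26) and the immediate early list in endothelium (1.79).

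Some groups differed in no pool. The 30 nuclear genes of oxidative phosphorylation and the 25 proteasome genes had 0 members past the threshold in all kept barcodes and in each class, with medians between -0.14 and 0.18 in 1-rule cells. Of 13 mitochondrially encoded genes, mt-Nd4l was higher in all 4 classes, and 5 were lower over all astrocytes, endothelium and microglia, with mt-Nd2 at 2124 and 1251 CPM (0.589) in 1-rule microglia.

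The changes shared by all 4 classes were few and held immediate early and inflammatory genes beside others. Of 7351 genes measured in all 4 classes, 31 (0.422%) were past the threshold and higher in each, and 8 (0.109%) lower in each. For comparison, 768 were past it in exactly 1 class, 6041 in none, and 56 in opposite ways in different classes. Of the 31 higher genes 5 stood in the immediate early list, 5 in the cytokine and chemokine list and 3 in the NF-kB feedback list, and 18 in none of these. With cells thinned to 1000 UMIs the balance turned, with 8 higher and 10 lower. The 4 comparisons share both libraries, so a gene that differs between the libraries for any reason, RNA carried between cells included, differs in all of them. The 31 higher genes were Fam155a, Tnf, Nr4a1, Spock3, Il1a, C4b, Egr1, Pou3f1, Atf3, Tnfaip3, Nfkbiz, Il1b, Ccl4, Csrnp1, Gm10076, Pls1, Ppp1r15a, Gpr84, Cd83, Ifi27l2a, Fos, Il33, Icam1, Gadd45b, E130102H24Rik, Ide, Fosb, mt-Nd4l, Paxbp1, Anln and Ccl12. The 8 lower genes were Gm47283, Gm42418, 4930481A15Rik, S100a9, Rnaset2a, AY036118, Mpp7 and Serpinh1.

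**Figure D5:**
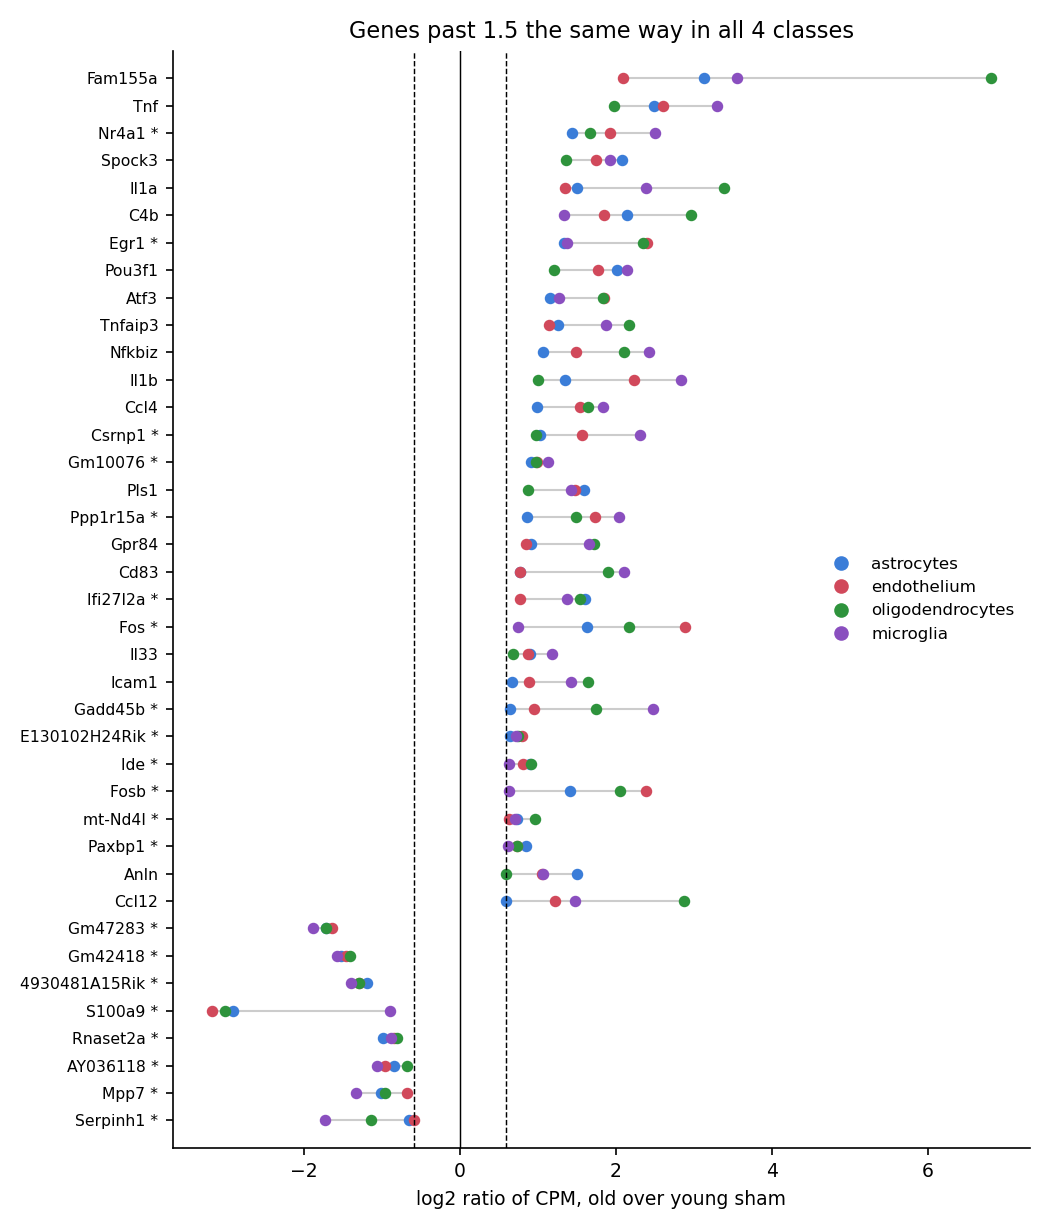
Log2 ratio of old over young sham (horizontal axis) in the 4 classes for the 31 higher and 8 lower shared genes; points are classes and dashed lines mark a ratio of 1.5. An asterisk marks genes whose 1-rule level in each class and library was at least 2 times what the carried markers would give, 13 of the 31 higher and 8 of the 8 lower. The carried markers are those of the 4 classes only, so RNA carried from other cells is not covered. S100a9 has an asterisk but was highest in barcodes of no class (9609 CPM young and 1988 CPM old).

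Several of the shared genes had their highest level in 1 class. Tnf, highest in microglia, went from 3.73 to 20.9 CPM over all astrocytes (5.61), but in 1-rule astrocytes its level was 0.903 (young) and 0.933 (old) times what the microglial markers carried there. In 1-rule endothelium it stood above that level, at 3.26 (young) and 3.89 (old) times, and in 1-rule oligodendrocytes at 5.21 and 1.90 times. The levels behind these were low, 1.47 and 28.3 CPM in endothelium, on 11 and 185 UMIs, and 2.22 and 7.27 CPM in oligodendrocytes. Over all endothelium 5 cells held 74.7% of the young and 59.0% of the old UMIs of Tnf. Il1a, Il1b, Ccl4, Nfkbiz, Cd83 and Gpr84 also had their highest level in microglia, and Fam155a, C4b, Spock3, Pls1, Anln and Pou3f1 in oligodendrocytes. In old 1-rule cells Fam155a stood at 274 CPM in oligodendrocytes, 9.15 in astrocytes, 3.21 in endothelium and 1.61 in microglia. C4b stood at 2.13 and 3.82 CPM in 1-rule endothelium and at 4.90 and 5.73 CPM in 1-rule microglia. In 1-rule cells 13 of the 31 stood at 2 times the carried level or more in each class and library: Nr4a1, Egr1, Csrnp1, Gm10076, Ppp1r15a, Ifi27l2a, Fos, Gadd45b, E130102H24Rik, Ide, Fosb, mt-Nd4l and Paxbp1. Over all cells of each class, where the 31 were counted, 10 did, these without Egr1, Fos and Fosb. When the count was repeated in 1-rule cells, 17 of 6386 genes (0.266%) were higher in all 4 classes and 5 (0.0783%) lower, of which 10 and 4 were also in the main count. Of the 13 genes above, Csrnp1, E130102H24Rik, Ide, Fosb and mt-Nd4l were not among the shared genes of 1-rule cells. Standing above the carried level is a matter of level and not of the ratio between the ages.

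Nr4a1 (chr15:101254269-101274795, GRCm38), of the immediate early genes, stood at 15.4 and 41.6 CPM in astrocytes (2.70), 30.6 and 117 CPM in endothelium (3.81), 17.3 and 54.8 CPM in oligodendrocytes (3.17) and 38.1 and 216 CPM in microglia (5.68). Fos had ratios of 3.08, 7.41, 4.48 and 1.67 in the same order and Egr1 of 2.52, 5.27, 5.08 and 2.59. Ppp1r15a, whose product GADD34 restarts translation after stress and whose promoter window is printed above, went from 31.5 to 57.2 CPM in astrocytes (1.81), from 36.7 to 122 CPM in endothelium (3.32), from 17.3 to 48.6 CPM in oligodendrocytes (2.81) and from 125 to 512 CPM in microglia (4.10). Of the 21 shared higher genes with a promoter in the table it was the 1 with the cyclic AMP element (4.76%). Its ratios in the tumour-bearing pair were 1.35, 1.25, 0.927 and 2.28.

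Ide, the insulin-degrading enzyme (chr19:37268743-37337852, GRCm38), had close ratios in all classes and in both pairs: 1.87, 1.76, 1.87 and 1.55 in the sham pair and 1.72, 1.70, 1.75 and 1.67 in the tumour-bearing pair, for astrocytes, endothelium, oligodendrocytes and microglia. These ratios are over all cells of each class, and the interval of the sham ratio in microglia (1.37 to 1.75) holds the threshold. Ide did not count as shared in 1-rule cells, with doublets left out or with thinned cells. Its level over all kept barcodes was 33.2 and 60.0 CPM in the sham pair and 37.8 and 58.7 CPM in the tumour-bearing pair. Of 13 measured genes within 1 Mb of Ide on either side, 2 were past the threshold in the sham pair, Ide and Btaf1 (1.68), and Ide alone in both pairs, while Fgfbp3 stood just under it in both (1.47 and 1.49) and March5, the nearest measured neighbour, did not (0.997 and 0.728). A duplication that spans Ide and Fgfbp3 is known to vary in copy number among C57BL/6 mice as background, and copy number was not tested. Paxbp1, a chromatin adaptor, had ratios of 1.80, 1.66, 1.66 and 1.53 in the sham pair but of 1.05, 0.893, 1.12 and 1.07 in the tumour-bearing pair.

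Of the 8 lower shared genes 3 are noncoding RNA in the annotation, Gm42418, AY036118 and 4930481A15Rik. Gm42418 (chr17:39846958-39848788, plus strand, GRCm38) overlaps a ribosomal RNA repeat and was the most abundant of the 8, at 37659 and 13097 CPM in astrocytes (0.348), 37915 and 13758 CPM in endothelium (0.363), 29953 and 11245 CPM in oligodendrocytes (0.375) and 30408 and 10239 CPM in microglia (0.337). AY036118, on the opposite strand of the same interval (chr17:39847113-39848035), had ratios of 0.557, 0.515, 0.623 and 0.480. The ratios of Gm42418 in the tumour-bearing pair were between 1.16 and 1.20, so it was not lower in the old library of that pair. Gm47283, on the Y chromosome (Y:90784738-90816464), had ratios from 0.271 in microglia to 0.320 in endothelium. S100a9 stood at 333 and 44.4 CPM in astrocytes (0.133) and at 323 and 35.6 CPM in endothelium (0.110), beside the neutrophil marker sums given above, and its part as carried RNA was not tested. Serpinh1, the collagen chaperone HSP47, had ratios of 0.638, 0.662, 0.453 and 0.302 in the sham pair and of 0.765, 0.565, 0.732 and 0.492 in the tumour-bearing pair.

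The tumour-bearing pair had 20 genes of 7400 (0.27%) higher in all 4 classes and 41 (0.554%) lower. The genes in both pairs were Spock3, Egr1 and Ide, 9.68% of the 31 in the sham pair and 15% of the 20 in the tumour-bearing pair, and 0 were lower in both. In 1-rule cells of the sham pair Egr1 was still shared, and Spock3 and Ide were not. One gene lower in all 4 classes of the sham pair, S100a9, was higher in all 4 of the tumour-bearing pair, with ratios of 137, 14.7, 98.7 and 3.09. The young tumour-bearing library held 167 CPM of Xist, the RNA of the inactive X chromosome, against less than 1 CPM in each of the other 3 libraries, so that pair also differs in a sex-linked gene.

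Genes that moved in opposite ways in different classes numbered 51 of the 7256 with enough UMIs in at least 2 classes. Hspa1b was higher in endothelium (2.44) and lower in microglia (0.223), and Hspa1a followed it (2.83 and 0.324). Marcksl1, a MARCKS-like protein, was higher in microglia (5.74) and lower in oligodendrocytes (0.583). Clic5 was higher in oligodendrocytes (4.14) and lower over all astrocytes (0.163). In 1-rule astrocytes it stood at 0.245 and 0.728 CPM, under the floor of 10 CPM, and so has no measured direction there. Ly6a was higher in oligodendrocytes (1.57) and lower over all astrocytes (0.188), with a log2 ratio of 0.12 in 1-rule astrocytes, and Wfdc2 was higher in astrocytes (2.83) and lower in endothelium (0.124). Both directions of Wfdc2 turned under other settings: its log2 ratio was -1.20 in astrocytes with doublets left out, and 0.026 in endothelium with other class markers and 0.14 with thinned cells.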

How the data were processed

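Single cells of the brain hemisphere opposite the injection were profiled with droplet 3' RNA sequencing. The authors deposited 1 matrix of UMI counts per library, with no normalization. The submitters' processing notes name Cell Ranger 3.0.2 and Seurat 2.3.4, while the matrix headers, per the file headers, name Cell Ranger 6.1.0, and the conflict was not resolved. Groups were taken from the labels.

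Counts were summed over barcodes of a pool and divided by their total (Python 3.11.15, numpy 2.4.6, scipy 1.17.1). Ratios carry exact conditional Poisson intervals and shares exact Clopper-Pearson intervals, both at 95% and for counting error only, since PCR copies were removed by UMI but cells of 1 library are not replicates. A count of 0 was set to 3 counts before a ratio was formed. No test was run, because each group has 1 library. The code was tested on simulated counts. Genes named had at least 100 UMIs and 20 CPM in 1 library, leaving out mitochondrial, ribosomal, hemoglobin, Y-linked and unnamed genes, Xist and the genes of the class rules: the 15 highest and 15 lowest over all barcodes, 10 and 10 per class, and 6 opposed genes. The shared genes are all named.

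The comparison, the 34 gene lists and the 18 marker lists were chosen with earlier results of these data known. Coordinates are from GENCODE (GRCm38). Scrublet (scanpy 1.11.5) marked 1095 young and 868 old barcodes at 0.8% per 1000 barcodes. Alternatives changed the cell filter, the class rules, doublets, scaling, depth and the minimum level.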

Additional observations from a re-analysis of the deposited data

Results flagged for a closer look

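Some genes stood in opposite directions in the sham and the tumour-bearing pair over all kept barcodes, or in different classes of the sham pair, each past 1.5-fold both ways. None of these differences was tested, since each group has 1 library. Neutrophil genes made up most of the first kind, with a lower level in the old library of the sham pair and a higher one in that of the tumour-bearing pair. Their old over young ratios in the sham and tumour-bearing pair were 0.0719 and 15.2 for Elane, 0.102 and 4.27 for Prtn3, 0.195 and 9.98 for Ltf, and 0.209 and 7.97 for Camp. They were 0.212 and 4.14 for Chil3, 0.229 and 3.78 for Mmp9, 0.229 and 8.49 for Ngp, and 0.242 and 6.03 for S100a9. They were 0.263 and 3.94 for Lcn2, 0.288 and 6.12 for S100a8, 0.290 and 2.82 for Ifitm6, and 0.306 and 8.50 for Wfdc21. Tph1, of serotonin synthesis, had 7.08 and 0.175, and Cxcl10, an interferon-induced chemokine, 3.85 and 0.166.

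Between classes of the sham pair, the inducible HSP70 genes were higher in endothelium and lower in microglia, with ratios of 2.44 and 0.223 for Hspa1b and of 2.83 and 0.324 for Hspa1a. Marcksl1 had 5.74 in microglia and 0.583 in oligodendrocytes. Clic5 had 4.14 in oligodendrocytes and 0.163 in astrocytes, Ly6a 1.57 and 0.188 in the same classes, and Wfdc2 2.83 in astrocytes and 0.124 in endothelium. Ly6a was not lower in 1-rule astrocytes (log2 ratio of 0.12). Clic5 stood there at 0.245 and 0.728 CPM, under the floor of 10 CPM, and has no measured direction. Wfdc2 was lower in astrocytes with doublets left out (-1.20) and not lower in endothelium with other class markers (0.026) or with thinned cells (0.14).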

How the results depend on the processing

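No paired analysis was possible because each group has 1 library, and for the same reason no library could be left out in turn. The counting floors are the main lever on the counts of genes past the threshold. With a minimum of 50 CPM the counts were 388 over all barcodes (897 as reported), 378 in astrocytes (1292), 216 in endothelium (804), 161 in oligodendrocytes (578), 327 in microglia (1115) and 10 shared by all classes (39). With 1 UMI in each library and no minimum level they were 5443, 5650, 4688, 4558, 5686 and 283. Cells thinned to 1000 UMIs gave 1364 over all barcodes, 894 in oligodendrocytes and 18 shared, of which 8 were higher and 10 lower (44.4% higher, against 79.5% as reported). Cells that met exactly 1 rule gave 621 in astrocytes and 22 shared, other markers for the classes 815 in astrocytes, and doublets left out 18 shared. Demanding in each class at least 1 part in 4 of the gene's highest level left 9 shared genes, and 2 times the level of carried markers in all cells of each class (10 higher and 8 lower), an alternative added after the data were seen, as was the 1-rule ranking, 18. In all 9 alternatives of cells and scaling 5 higher genes (Ccl4, Egr1, Fos, Gm10076, Nr4a1) and 3 lower (AY036118, Gm42418, Gm47283) stayed shared. Under a stricter cell filter the ratio of class shares was 0.840 for astrocytes (0.767) and 2.47 for oligodendrocytes (2.67), and with thinning to 2000 UMIs 0.676 for microglia (0.712).

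The share of higher genes among those past the threshold was 81.0% instead of 44.4% in 1-rule astrocytes and 67.9% instead of 48.4% in 1-rule endothelium, 54.0% instead of 66.6% in oligodendrocytes with ratios centred on the median gene, and 46.7% instead of 34.3% in microglia with the mean of each cell's CPM. It also crossed 50% in microglia at a minimum of 50 CPM (54.1%, 177 higher and 150 lower), in astrocytes with no minimum level (59.6%) and in endothelium with doublets left out (53.5%), other markers (50.6%), thinning (53.7%), 50 CPM (54.6%) or CPM averaged over cells (56.2%). Of the 20 genes named per class, 10 of endothelium kept their side of the threshold with other class markers. These log2 ratios changed sign there: Spp1 -0.56, Lpl -0.022, Ngp 0.53, Camp 0.49 and Wfdc2 0.026. Wfdc2 in endothelium was 0.14 when thinned. With doublets left out Igkc over all barcodes was -0.71, Sspo in astrocytes -0.78, Wfdc2 in astrocytes -1.20, Chgb in endothelium -0.37, and Chgb and Nrgn in oligodendrocytes -0.062 and -0.081. In 1-rule cells Erg (0.35), Clic5 (1.57) and Ly6a (0.12) changed sign in astrocytes, Olfml3 in endothelium (0.022) and Ly6a in microglia (0.19), as did the medians of complement (0.0059) and of collagens (0.12) in astrocytes and of homeostatic microglia genes (0.032) and aged oligodendrocyte candidates (-0.13) in endothelium. Erg (4 and 4 UMIs) and Clic5 (0.245 and 0.728 CPM) were under the measuring floor in 1-rule astrocytes, so their signs there show no direction. The cytokine median in astrocytes was -0.041 at 50 CPM. The cause of these changes was not tested.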
